A study of Mus musculus with 6 samples.

Results

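The genes of sterol and fatty acid synthesis were followed gene by gene in nuclei of the mouse retina. They were 29 of the 32285 genes measured, taken by symbol: 18 enzymes of sterol synthesis, 5 enzymes of fatty acid synthesis, 5 genes of the sterol-sensing SREBP system and 1 sterol carrier. The levels in Müller-like nuclei, which carry the RNA of the main glial cell of the retina, were set against those in rod-like, cone-like, bipolar-like and amacrine-like nuclei. Retinas of C57BL/6J mice were assayed by single-nucleus multiome sequencing, a method that reads RNA and open chromatin (ATAC) of each nucleus together. There were 3 groups. The first was a naïve control, and the others were eyes given an AAV2/2 vector for WIF1, a secreted protein that binds Wnt ligands, taken 2 or 4 weeks AVI, an abbreviation that the labels do not expand. Each group had 2 eyes and 1 library, and whether the eyes were pooled is not stated. Both Wif1 vectors in the design text carry the CMV promoter, 1 with GFP and 1 without, and the one given to these eyes is not named. Because the control is labelled naïve, effects of the injection, of the vector and of WIF1 cannot be told apart. Age and sex of the animals are not given.

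Cells make cholesterol from acetyl-CoA through the mevalonate pathway, which leads to squalene, and then through a series of ring-forming and ring-trimming steps. Transcription of nearly all of these enzymes is driven by SREBP-2 (Srebf2), and that of fatty acid synthesis and desaturation largely by SREBP-1c (Srebf1); both factors are held in the endoplasmic reticulum by SCAP and the INSIG proteins while sterols are plentiful. Müller glia span the retina, support its neurons and are thought to supply them with lipids.

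The libraries held 14568384 to 21805441 RNA counts (unique molecular identifiers, UMIs), and 7117, 8683 and 8831 nuclei were kept from the control, 2-week and 4-week libraries, with median depths of 1627, 797 and 1199 UMIs. Between 142 and 207 cell barcodes were shared by a pair of libraries. Wif1 itself was counted with 1, 11 and 37 UMIs. Müller-like nuclei numbered 78, 264 and 210 and gave 291694, 677726 and 742725 UMIs, and all 13 Müller markers were detected in each library. All 10 rod markers were also present in them, at summed levels of 3154, 1291 and 1552 CPM (counts scaled to a fixed total of the class in each library). The share of Müller-like UMIs estimated to be of rod origin was 9.21%, 3.97% and 5.82%. It was 18.1%, 7.96% and 15.9% in amacrine-like, 6.59% to 13.6% in bipolar-like and 29.3% to 31.1% in cone-like nuclei. The estimate takes all RNA of the 10 rod markers as coming from rods. Any such RNA made by the class itself, as in cone-like nuclei, would count as rod origin, which was not tested. Of 11 amacrine markers, 4, 3 and 6 were detected in Müller-like nuclei, at summed levels of 802.2, 1172 and 829.4 CPM, beside 2632, 3928 and 2954 CPM in amacrine-like nuclei. The 3 detected at 2 weeks were Gad1, Tfap2b and Pax6, and Gad1 and Pax6 were detected in every library. Gad2, Tfap2a and C1ql2 were at 0 in Müller-like nuclei of every library. Whether the detected markers came from amacrine RNA or from the Müller-like nuclei themselves was not tested, nor was their part in the results.

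Promoter sequence was matched for 23 of the 29 genes (RefSeq, GRCm38.p6; not for Fdps, Fdft1, Sqle, Stard4, Scd1 and Scd2), and the 250 bases upstream of the start site were searched on both strands for 3 motifs linked to SREBP-driven transcription. These were a sterol regulatory element (TCACNCCAC), the NF-Y box (CCAAT) and the GC box bound by Sp1 (GGGCGG), none of which contains another. The sterol regulatory element occurred in 1 of the 23, Hmgcs1, with its first base 137 bases upstream of the RefSeq start. It occurred in 1.17% of the 10058 genes that were both tested for RNA and listed with a promoter. An NF-Y box was present in 20 of the 23 (87% against 40.8% of those genes), a GC box also in 20 (87% against 63.2%), and both in the same promoter in 17 (73.9% against 23.5%). The 3 genes without an NF-Y box were Acat2, Elovl6 and Scap. A match is a match of letters and shows no binding, and genes with several listed promoters count once. Only these strings were searched, so a promoter without a match may hold a variant of them. Whether the motifs go with the cell types of expression was not tested. The 6 promoters below are those of the gene with the sterol regulatory element, of 2 enzymes and 2 SREBP genes whose RNA is described in detail, and of Elovl6, which held none of the 3 motifs and followed another pattern of cell types. They lie at chr13:119690101-119690350 (plus strand) for Hmgcs1, chr13:8885356-8885605 (plus strand) for Idi1, chr8:64733579-64733828 (minus strand) for Msmo1, chr15:82147019-82147268 (plus strand) for Srebf2, chr5:28071162-28071411 (plus strand) for Insig1 and chr3:129532136-129532385 (plus strand) for Elovl6. Each lies just upstream of the first exon's start in RefSeq and is printed 5′ to 3′ along the gene's strand. The start sites given with the counts differ from the RefSeq ones. They lie inside the printed stretch at Idi1 (8885501), Msmo1 (64733792), Srebf2 (82147181 to 82147204) and Insig1 (28071363). At Idi1 and Msmo1 all matches lie downstream of them. At Hmgcs1 they lie past its end (119690446 to 119690464), and at Elovl6 across its end. Capitals mark every match, and all 250 bases of each promoter lay under an ATAC peak in all 3 libraries.
Hmgcs1: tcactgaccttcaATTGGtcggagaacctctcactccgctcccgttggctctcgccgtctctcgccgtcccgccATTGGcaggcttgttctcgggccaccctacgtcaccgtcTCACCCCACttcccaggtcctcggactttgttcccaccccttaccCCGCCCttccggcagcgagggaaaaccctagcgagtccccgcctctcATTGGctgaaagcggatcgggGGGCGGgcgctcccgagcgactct
Idi1: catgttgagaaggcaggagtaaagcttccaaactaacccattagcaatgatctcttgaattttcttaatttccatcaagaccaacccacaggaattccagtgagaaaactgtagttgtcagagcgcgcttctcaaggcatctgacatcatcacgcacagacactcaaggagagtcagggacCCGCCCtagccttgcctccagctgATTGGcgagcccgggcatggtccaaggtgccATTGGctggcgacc
Msmo1: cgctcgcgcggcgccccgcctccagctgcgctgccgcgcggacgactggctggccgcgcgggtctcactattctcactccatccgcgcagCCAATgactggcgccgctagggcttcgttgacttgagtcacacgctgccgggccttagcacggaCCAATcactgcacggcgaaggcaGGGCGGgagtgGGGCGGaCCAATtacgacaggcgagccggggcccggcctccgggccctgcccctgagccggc
Srebf2: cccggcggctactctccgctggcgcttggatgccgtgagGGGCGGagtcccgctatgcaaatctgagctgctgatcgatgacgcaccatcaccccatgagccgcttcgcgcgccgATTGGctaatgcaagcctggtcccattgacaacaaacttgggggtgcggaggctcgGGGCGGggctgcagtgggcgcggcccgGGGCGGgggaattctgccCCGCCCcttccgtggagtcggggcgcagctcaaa
Insig1: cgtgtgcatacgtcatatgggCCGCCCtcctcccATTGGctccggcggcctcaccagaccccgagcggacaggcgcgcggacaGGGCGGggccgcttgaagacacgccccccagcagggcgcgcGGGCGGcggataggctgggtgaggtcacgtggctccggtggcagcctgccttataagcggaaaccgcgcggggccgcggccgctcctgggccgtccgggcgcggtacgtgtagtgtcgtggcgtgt
Elovl6: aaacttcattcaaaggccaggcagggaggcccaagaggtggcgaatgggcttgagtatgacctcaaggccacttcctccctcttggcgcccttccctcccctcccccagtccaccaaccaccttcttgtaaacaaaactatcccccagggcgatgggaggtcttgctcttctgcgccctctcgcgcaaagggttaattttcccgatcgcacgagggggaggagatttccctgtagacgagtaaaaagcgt

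Among the SREBP genes, RNA of both transcription factors was highest in Müller-like nuclei in all 3 libraries. Srebf1 stood at 113, 115 and 133 CPM in Müller-like nuclei of the control, 2-week and 4-week libraries. The 4 neuron classes lay between 8.21 and 25.1 CPM, so the Müller-like values were above every neuronal value. Srebf2 stood at 209, 131 and 190 CPM in Müller-like nuclei. Amacrine-like nuclei were next with 129, 123 and 157 CPM, which overlaps the Müller-like range, while the other 3 classes lay between 19.0 and 44.8 CPM.

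The contrasts between classes were tested within libraries with edgeR's quasi-likelihood test and Benjamini-Hochberg adjustment over 13173 genes, the 3 libraries serving as replicates. Srebf1 was higher in Müller-like nuclei by 2.35 ± 0.17 (log2, SE) against rod-like, 2.94 ± 0.22 against cone-like, 3.02 ± 0.18 against bipolar-like and 3.33 ± 0.24 against amacrine-like nuclei, with edgeR adjusted p-values of 5.35e-13, 1.68e-12, 9.45e-15 and 1.07e-12. Srebf2 was higher by 2.44 ± 0.16, 2.79 ± 0.19 and 1.94 ± 0.15 against rod-like, cone-like and bipolar-like nuclei, the edgeR adjusted p-values being 4.58e-14, 5.05e-13 and 5.65e-12. Against amacrine-like nuclei its difference was 0.41 ± 0.16 (edgeR adjusted p = 0.0311). That call was lost without the control library (log2 0.28, edgeR adjusted p = 0.26), without the 4-week library (0.38, adjusted p = 0.157) and with RNA of rod origin subtracted.

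The sensors of the SREBP system differed among themselves. Insig1, which retains the SCAP-SREBP complex and is itself an SREBP target, stood at 141, 44.3 and 108 CPM in Müller-like nuclei and at 74.5, 92.0 and 89.6 CPM in amacrine-like nuclei. Bipolar-like nuclei had 12.9 to 16.2 CPM, and rod-like and cone-like nuclei 2.40 to 5.32 CPM. Müller-like and amacrine-like nuclei thus overlapped, and both lay above the other classes in each library. The tested difference was 4.11 ± 0.28 (log2) against rod-like, 4.58 ± 0.39 against cone-like and 2.53 ± 0.24 against bipolar-like nuclei (edgeR adjusted p = 1.88e-13, 3.66e-11 and 4.67e-10), and 0.16 ± 0.24 against amacrine-like nuclei (edgeR adjusted p = 0.607). Insig2, the second INSIG protein, differed less, by 0.58 ± 0.18 to 0.90 ± 0.16 against the first 3 classes (edgeR adjusted p = 0.00667 to 1.74e-05) and by 0.31 ± 0.18 against amacrine-like nuclei (adjusted p = 0.156). Against cone-like nuclei the Insig2 call was lost without the control library (log2 0.51, adjusted p = 0.0552), and also with RNA of rod origin subtracted and with classes by highest marker score. Scap, the escort that carries SREBP to the Golgi, stood at 41.3 to 60.6 CPM in Müller-like and 112 to 184 CPM in cone-like nuclei, with no overlap, and was lower in Müller-like nuclei by 1.47 ± 0.20 (log2 -1.47, edgeR adjusted p = 3.42e-07). Its differences against the other 3 classes ran from -0.44 to 0.10 and did not pass the threshold.

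**Figure D1:**
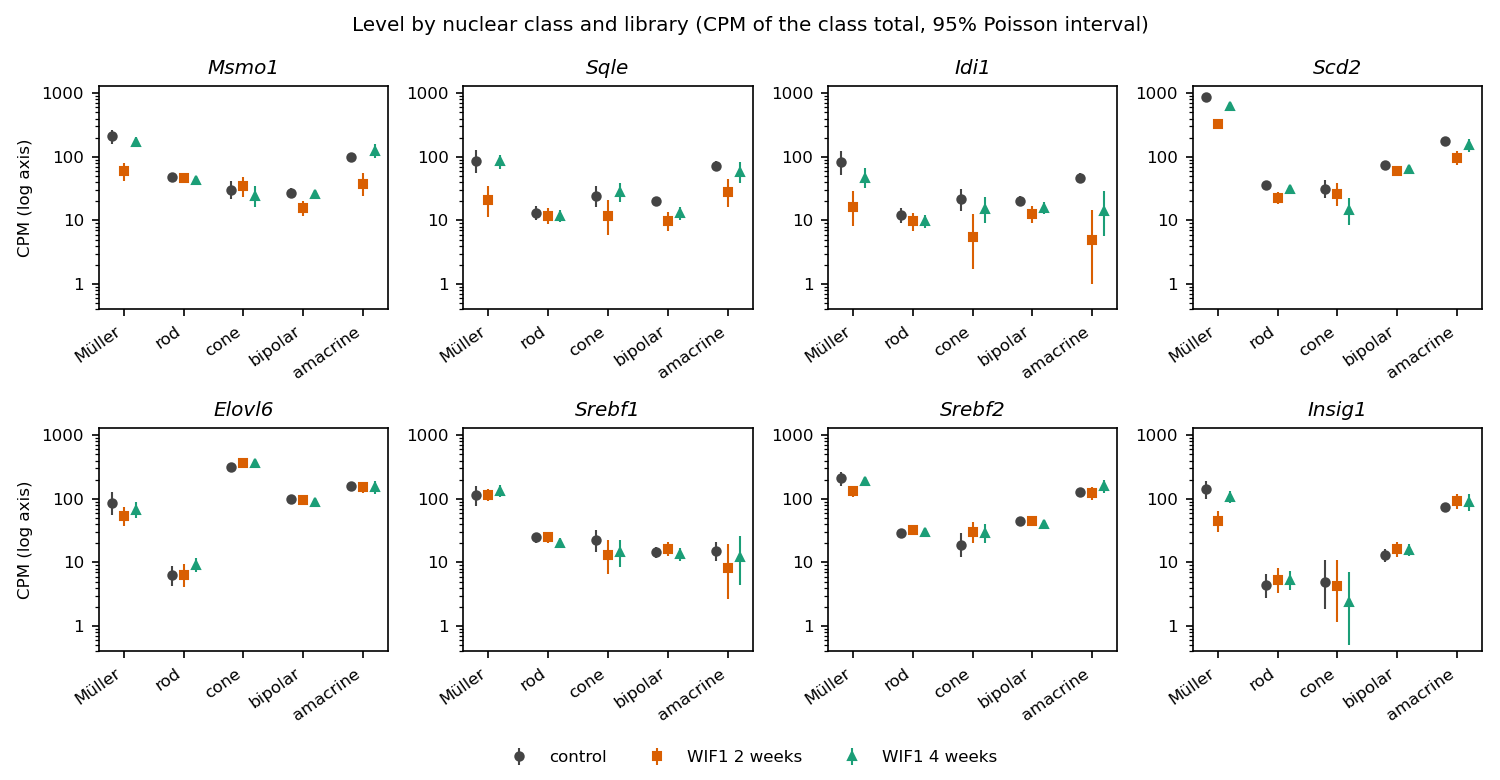
RNA level of 8 of the genes (CPM of the class total, log axis) in the 5 nuclear classes. Circles are the control, squares the 2-week and triangles the 4-week library, 1 library each, and bars are 95% Poisson intervals that cover counting error only. Srebf1 and Scd2 were highest in Müller-like nuclei in all 3 libraries, Elovl6 was highest in cone-like nuclei, and Insig1 was high in both Müller-like and amacrine-like nuclei.

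Sterol enzymes were higher in Müller-like nuclei than in photoreceptors and bipolar cells at several but not all steps. Of the 17 sterol enzymes with enough counts to test, 11 were higher and 0 lower against rod-like nuclei, 8 and 0 against cone-like, 8 and 1 against bipolar-like, and 3 and 3 against amacrine-like nuclei. Over all 13173 genes, 31.3% were called higher and 32.2% lower against rod-like nuclei. The same shares were 29.5% and 25.7% against cone-like, 26.4% and 27.7% against bipolar-like and 24.1% and 25.6% against amacrine-like nuclei. The count against amacrine-like nuclei was therefore near the background in both directions, and 11 of the 17 passed in neither. The calls of Msmo1 and Idi1 there, and that of Srebf2, were also lost without the library block and with classes by highest marker score, and that of Cyp51 without the block. Those of Msmo1 and Srebf2 were lost with DESeq2, and those of Idi1 and Srebf2 without nuclei of high rod RNA. The median log2 difference of the 17 was 0.93 against rod-like, 0.57 against cone-like, 0.49 against bipolar-like and -0.13 against amacrine-like nuclei, beside medians of -0.13, 0.01, -0.08 and -0.04 over all genes.

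At the entry to the pathway, Hmgcs1, which makes HMG-CoA, stood at 68.6, 25.1 and 70.0 CPM in Müller-like nuclei and at 93.2, 32.8 and 49.8 CPM in amacrine-like nuclei. The other classes lay between 13.7 and 32.3 CPM, so only the 2-week Müller-like value fell within their range. Hmgcs1 was higher by 1.58 ± 0.26 (log2) against rod-like, 1.01 ± 0.28 against cone-like and 1.30 ± 0.25 against bipolar-like nuclei (edgeR adjusted p = 4.81e-06, 0.0035 and 7.01e-05). Without the 4-week library the cone and bipolar calls were lost (0.59 and 0.83, adjusted p = 0.228 and 0.0565). The cone call was also lost without the library block, with RNA of rod origin subtracted and with classes by highest marker score. Acat2, the thiolase that condenses acetyl-CoA, was higher by 1.63 ± 0.30, 1.21 ± 0.35 and 0.87 ± 0.29 against the same 3 classes (edgeR adjusted p = 3.26e-05, 0.00374 and 0.0111). Its call against bipolar-like nuclei was lost without either the 2-week or the 4-week library (adjusted p = 0.0642 and 0.094) and with classes by highest marker score, and its cone call without nuclei of high rod RNA. The mevalonate kinases and decarboxylase (Mvk, Pmvk and Mvd) passed in none of the 4 contrasts, with log2 differences from -0.60 to 0.85 and as few as 2 UMIs in a Müller-like sum.

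Isoprenoid steps split. Idi1, which isomerises isopentenyl diphosphate, stood at 82.3, 16.2 and 47.1 CPM in Müller-like nuclei, the highest class in each library. The 2-week value was above every rod-like value, but not above all cone-like, bipolar-like or amacrine-like values of the 3 libraries. Idi1 was higher by 2.04 ± 0.33 (log2), 1.72 ± 0.37, 1.42 ± 0.31 and 0.84 ± 0.34 against rod-like, cone-like, bipolar-like and amacrine-like nuclei (edgeR adjusted p = 3.55e-06, 0.000266, 0.000295 and 0.043). The last of these was 1.85 without the control library and was lost without the 4-week library (0.57, adjusted p = 0.338) and with RNA of rod origin subtracted. Fdps, which makes farnesyl diphosphate, went the other way. It stood at 61.7, 19.2 and 28.3 CPM in Müller-like and 95.3, 41.1 and 71.7 CPM in amacrine-like nuclei, where each library had the higher value in amacrine-like nuclei. Its log2 difference was -1.16 ± 0.28 against amacrine-like and -0.73 ± 0.26 against bipolar-like nuclei (edgeR adjusted p = 0.00114 and 0.0209), and the second was lost without the 2-week or the 4-week library (adjusted p = 0.211 and 0.127), with DESeq2, without the block and without nuclei of high rod RNA. Fdft1, squalene synthase, was lower against amacrine-like nuclei (log2 -1.197 ± 0.20, edgeR adjusted p = 7.89e-06) and higher against rod-like nuclei by 0.78 ± 0.21 (edgeR adjusted p = 0.0016).

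From squalene onward, Sqle and Msmo1 carried the widest differences from bipolar-like nuclei. Sqle, the epoxidase that adds oxygen to squalene, stood at 85.7, 20.7 and 84.8 CPM in Müller-like and 9.72 to 28.03 CPM in rod-like, cone-like and bipolar-like nuclei, which reach past the 2-week Müller-like value. Its log2 differences were 2.28 ± 0.26, 1.59 ± 0.29 and 2.08 ± 0.26 (edgeR adjusted p = 1.41e-08, 3.33e-05 and 7.94e-08), against 0.27 ± 0.26 with amacrine-like nuclei (adjusted p = 0.425). Msmo1, the C4-methyl sterol oxidase, stood at 209, 59.0 and 174 CPM in Müller-like nuclei and 15.7 to 48.9 CPM in the same 3 classes, below every Müller-like value. Its log2 differences were 1.52 ± 0.23, 2.31 ± 0.28 and 2.52 ± 0.24 (edgeR adjusted p = 1.04e-06, 5.42e-08 and 3.81e-10). Against amacrine-like nuclei (98.3, 37.8 and 126 CPM) it was 0.77 ± 0.25 (edgeR adjusted p = 0.0114), a call lost without the control (0.63, adjusted p = 0.0799), without the 4-week library (0.73, adjusted p = 0.0571) and with RNA of rod origin subtracted.

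Among the later ring enzymes, Nsdhl, Sc5d and Dhcr7 were called higher against 2 or 3 of the neuron classes and against amacrine-like nuclei in none. Nsdhl, a C4 decarboxylase, was higher by 1.47 ± 0.26, 1.61 ± 0.32 and 1.27 ± 0.26 (log2) against rod-like, cone-like and bipolar-like nuclei, with edgeR adjusted p-values of 1.71e-05, 7.76e-05 and 0.000124. Sc5d, the lathosterol desaturase, differed most from cone-like nuclei (1.97 ± 0.33, edgeR adjusted p = 9.55e-06; 2.62 without the control library). Dhcr7, the enzyme of the last step to cholesterol, also differed most from cone-like nuclei (2.48 ± 0.49, edgeR adjusted p = 8.52e-05), and without the control library its calls against rod-like and bipolar-like nuclei were lost (adjusted p = 0.198 and 0.118). Ebp, the sterol isomerase, was higher against rod-like, bipolar-like and amacrine-like nuclei by 1.199 ± 0.20, 0.47 ± 0.19 and 0.73 ± 0.23 (edgeR adjusted p = 6.11e-06, 0.0371 and 0.00795). The bipolar call was lost without the control or the 2-week library (adjusted p = 0.148 and 0.369), and the amacrine call without the 2-week library (adjusted p = 0.23). Both were also lost without nuclei of high rod RNA and with classes by highest marker score, and the bipolar call with RNA of rod origin subtracted, without the block and with no filter beyond 1 count. Cyp51, the lanosterol demethylase, was higher against rod-like nuclei by 0.84 ± 0.23 (edgeR adjusted p = 0.00242; 0.237 without the 4-week library) and lower against amacrine-like nuclei by 0.72 ± 0.23 (log2 -0.72, edgeR adjusted p = 0.0113; 0.141 without the 2-week library). Lss and Tm7sf2 passed in no contrast, and Hsd17b7 had too few counts to test, with 3, 5 and 7 UMIs in Müller-like nuclei.

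Fatty acid enzymes differed from one another more than the sterol enzymes did. Scd2, a stearoyl-CoA desaturase that makes monounsaturated fatty acids, stood at 864, 325 and 621 CPM in Müller-like nuclei. Amacrine-like nuclei had 175, 96.9 and 153 CPM, and the other neurons 14.4 to 73.7 CPM, so the lowest Müller-like value was above every neuronal one. Its log2 differences of 4.20 ± 0.17, 4.69 ± 0.21, 3.06 ± 0.16 and 2.10 ± 0.17 against rod-like, cone-like, bipolar-like and amacrine-like nuclei had edgeR adjusted p-values of 8.22e-19, 2.06e-17, 3.73e-16 and 1.38e-11. The paralog Scd1 had 1 UMI in Müller-like nuclei of each library and was not tested. How reads shared by such copies were counted is not given in the sources used here.

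Elovl6, which elongates palmitate-length fatty acids, was highest in cone-like nuclei. It stood at 318, 367 and 364 CPM in cone-like, 153 to 160 CPM in amacrine-like, 90.3 to 99.0 CPM in bipolar-like, 53.1 to 85.7 CPM in Müller-like and 6.31 to 9.05 CPM in rod-like nuclei. These ranges did not overlap between any of the 5 classes. Müller-like nuclei were higher than rod-like by 3.07 ± 0.22 (log2, edgeR adjusted p = 8.52e-13) and lower than the others, with log2 differences of -2.36 ± 0.16, -0.60 ± 0.17 and -1.198 ± 0.18 for cone-like, bipolar-like and amacrine-like nuclei (edgeR adjusted p = 3.86e-13, 0.00394 and 2.07e-06). Without the 2-week library the bipolar contrast had an adjusted p of 0.0518. Acss2, which makes acetyl-CoA from acetate, was lower in Müller-like than in amacrine-like nuclei (log2 -1.44 ± 0.22, edgeR adjusted p = 3.93e-06) and rod-like nuclei (log2 -0.96 ± 0.21, edgeR adjusted p = 0.000255; -0.53 and 0.106 without the 4-week library). Fasn, fatty acid synthase, had 2, 16 and 23 UMIs in Müller-like nuclei. It was called higher against rod-like, cone-like and bipolar-like nuclei (log2 2.25 ± 0.36, 1.83 ± 0.42 and 1.125 ± 0.33, edgeR adjusted p = 3.48e-06, 0.000467 and 0.00445), and without the 4-week library the cone and bipolar calls were lost (adjusted p = 0.0543 and 0.335) and the first was 1.61. Stard4, the sterol carrier, had 2, 2 and 4 UMIs in Müller-like nuclei and passed in no contrast.

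**Figure D2:**
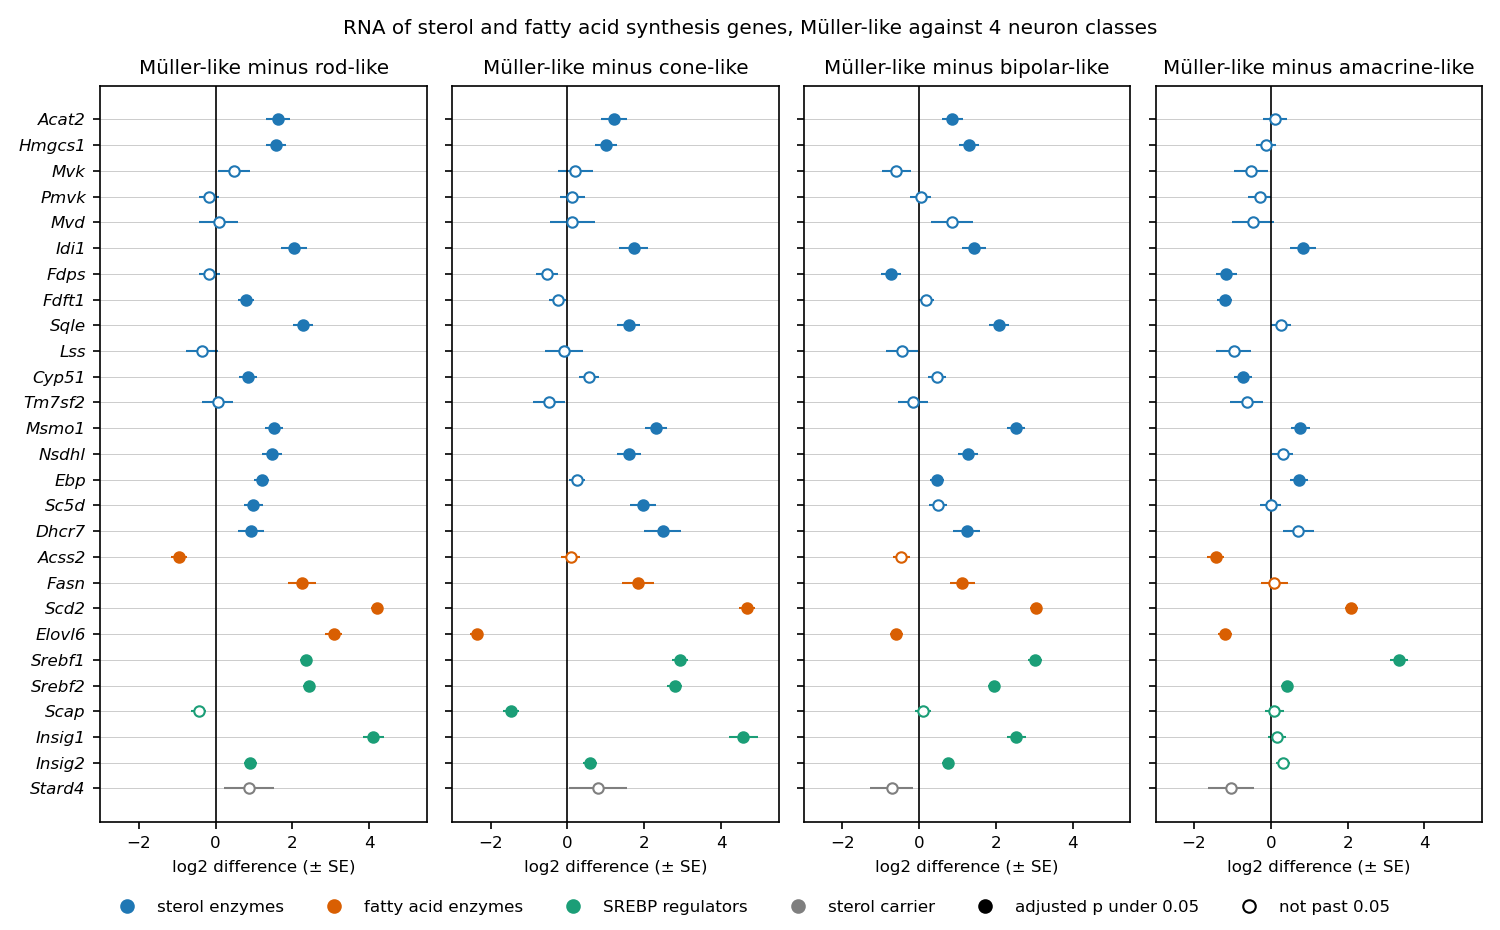
Log2 difference in RNA (edgeR, ± SE derived from its F statistic) of Müller-like nuclei against each neuron class for the 27 tested genes, 3 libraries. Filled points passed an adjusted p of 0.05 and open points did not. Most filled points lie to the right of 0 in the first 3 panels, whereas against amacrine-like nuclei 6 lie to the right and 5 to the left.

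Enzymes and SREBP genes were also set against the mean of the 4 neuron classes. Of the 21 tested enzymes, 11 were higher and 2 lower, and of the 5 SREBP genes 4 were higher and 0 lower, beside 29% and 27.5% of all genes. The median log2 difference was 0.66 over the 17 sterol enzymes, 0.53 over the 4 tested fatty acid enzymes and 1.90 over the 5 SREBP genes, beside -0.08 over all genes. By gene, Scd2 (3.51 ± 0.12), Srebf1 (2.91 ± 0.16), Insig1 (2.85 ± 0.23) and Srebf2 (1.90 ± 0.13) led, followed by Msmo1 (1.78 ± 0.21), Sqle (1.55 ± 0.23) and Idi1 (1.51 ± 0.29). The 2 lower enzymes were Fdps (-0.64 ± 0.25, edgeR adjusted p = 0.0316) and Acss2 (-0.69 ± 0.20, edgeR adjusted p = 0.00507). Without the 4-week library 13 of these 17 calls were kept, and Acss2, Fdps, Fasn and Hmgcs1 were lost (adjusted p = 0.184, 0.153, 0.165 and 0.205), and without the 2-week library Fdps and Ebp were lost (adjusted p = 0.287 and 0.115). Acss2, Hmgcs1, Acat2 and Ebp were lost with classes by highest marker score, and Fdps with DESeq2, without the block and without nuclei of high rod RNA.

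Of 38 other genes of sterol and fatty acid handling, listed by pathway, 35 were tested, and 14 were higher and 11 lower in Müller-like nuclei against the mean of the neuron classes, beside 29% and 27.5% of all genes. By step, uptake and trafficking had 5 higher and 2 lower of 8, efflux and its LXR regulators 2 and 1 of 6, esterification and hydroxylation 3 and 0 of 4, and fatty acid and glycerolipid steps 4 and 4 of 8. Neither of the 2 proteases that release SREBP passed. Genes of the isoprenoid branch had 0 higher and 4 lower of 7 (Fntb, Dhdds, Pdss1 and Coq2). Acsl3, an acyl-CoA synthetase of lipid droplets, differed by 5.21 ± 0.11 (log2), and Lrp1, an apolipoprotein E receptor, by 4.23 ± 0.15 (edgeR adjusted p = 2.6e-25 and 3.71e-20). Cyp27a1, a sterol hydroxylase of mitochondria, stood at 113, 125 and 86.2 CPM in Müller-like nuclei, with 0 UMIs in cone-like and amacrine-like nuclei and 0 to 5 UMIs per library in rod-like and bipolar-like nuclei, and was called higher. Elovl5 (3.19 ± 0.16) and Elovl1 (2.01 ± 0.34), elongases of long chains, were higher. The suppliers of cytosolic acetyl-CoA and NADPH, Acly (-1.11 ± 0.20) and Me1 (-1.94 ± 0.24), were lower, as was the lipoprotein receptor Vldlr (-3.21 ± 0.21).

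Accessibility of the promoters was measured in the same nuclei. Counts were summed over ATAC peaks from 1000 bp before the first to 1000 bp past the last start site of each gene. They were tested by the same model over 15537 genes, and all 29 genes had such peaks in all 3 libraries. Peaks between distant start sites were thus included, as at Fdft1 (start sites from 63164925 to 63179578) and Pmvk (89454541 to 89459571). Against the mean of the 4 classes, the promoters of 3 genes were higher (Fasn, Scd2 and Stard4) and of 4 lower (Mvd, Lss, Sc5d and Insig2) in Müller-like nuclei, beside 22.3% and 18.2% of all promoters. Against rod-like nuclei 7 were higher and 8 lower (28.9% and 28.3% of all promoters), against cone-like 3 and 3 (18.9% and 16.3%), against bipolar-like 1 and 4 (15.7% and 15.2%) and against amacrine-like 1 and 2 (14.7% and 13.3%). Of the 7 promoters higher against rod-like nuclei, 5 belonged to genes whose RNA was also called higher there (Nsdhl, Fasn, Scd2, Elovl6 and Insig1), as were the RNAs of 4 of the 8 genes with lower promoters (Fdft1, Cyp51, Msmo1 and Sc5d). For comparison, RNA of 18 of the 27 tested genes was called higher there, so neither share is read as a link between promoter and RNA. Elovl6 had the widest of these promoter differences, 1.81 ± 0.37 (log2, edgeR adjusted p = 0.000165), beside 3.07 for its RNA. The Nsdhl promoter call was lost without the 2-week or the 4-week library and without nuclei of high rod RNA, and that of Insig1 without the 4-week library. As shares of the 29, all of the promoter counts above were at or below the background. Against the mean, leaving out the 2-week library gave 6 higher and 2 lower, and leaving out the 4-week library gave 1 higher. Without the 4-week library the lower counts were 5 against rod-like, 2 against bipolar-like and 0 against amacrine-like nuclei, and without the 2-week library they were 4, 4 and 1. The higher counts ran from 1 to 3 against cone-like, 0 to 2 against bipolar-like and 0 to 4 against amacrine-like nuclei over the 3 libraries left out in turn.

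The Scd2 promoter stood at 134, 106 and 87.3 CPM of promoter counts in Müller-like and 53.0, 47.6 and 36.0 CPM in cone-like nuclei, with no overlap, a log2 difference of 1.23 ± 0.15 (edgeR adjusted p = 4.17e-07). Against bipolar-like (82.7 to 109 CPM) and amacrine-like nuclei (81.5 to 104 CPM) it overlapped, and it did not pass. A second Scd2 peak was counted in the control and 2-week libraries, from 44294662 and 44294666, but not at 4 weeks. Scd2 promoter levels of different libraries therefore rest on different peaks, and these ranges mix them. At Srebf1 the peak counted, over the listed promoter chr11:60220628-60220877, stood at 52.3, 49.96 and 65.5 CPM in Müller-like nuclei. These values were inside the neuronal range of 48.4 to 74.8 CPM. Srebf1 RNA, counted over the whole gene, was higher in Müller-like nuclei than in every neuron class. Its other listed promoters (chr11:60210472-60210721 and chr11:60222582-60222831) had 0 bases under a counted peak, so their accessibility was not measured. At Msmo1 the promoter was lower in Müller-like than in rod-like nuclei (log2 -0.42 ± 0.13, edgeR adjusted p = 0.00942; -0.30 and 0.0811 without the control library), where the RNA was higher. Fewer ATAC counts lay behind Müller-like promoters, such as 22 counts at Msmo1 in the control, than behind the neuronal ones.

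**Figure D3:**
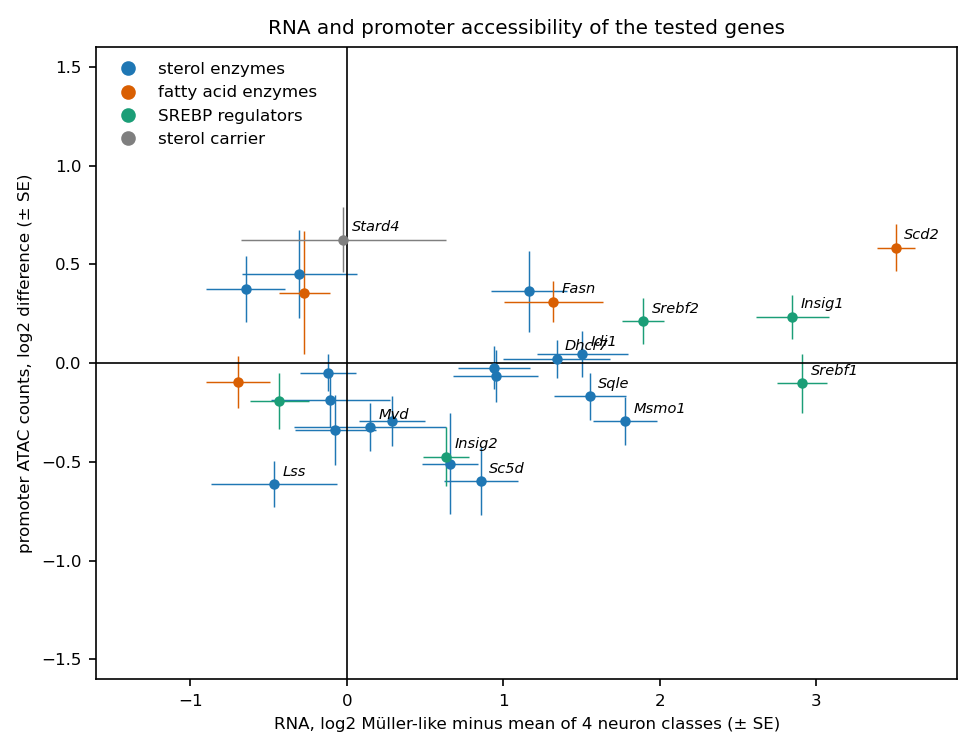
Log2 difference of Müller-like nuclei against the mean of the 4 neuron classes in RNA (horizontal) and in promoter ATAC counts (vertical), 1 point per tested gene with ± SE. RNA differences reach 3.51 for Scd2, whereas its promoter differed by 0.58 and the promoters of Srebf1 and Msmo1 lie at or below 0. For Srebf1 only the listed promoter at chr11:60220628-60220877 was counted.

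Next, the groups were compared within each class. With 1 library per group there was no test; ratios carry 95% conditional binomial intervals that cover counting error only and not differences between eyes. Both WIF1 libraries are set against the same control. In Müller-like nuclei the summed level of the 18 sterol enzymes was 936 CPM in the control, 395 CPM at 2 weeks and 749 CPM at 4 weeks. The 2-week sum was 0.422 times control (0.356 to 0.502) and the 4-week sum 0.7999 times control (0.691 to 0.928). The 5 fatty acid enzymes stood at 1004, 440 and 749 CPM, of which Scd2 made up 86.0%, 73.8% and 82.9%; without Scd2 the sums were 141, 115 and 128 CPM and the 2-week ratio was 0.819 (0.554 to 1.23). The 5 SREBP genes stood at 593, 407 and 572 CPM, with ratios of 0.687 (0.566 to 0.835) and 0.965 (0.807 to 1.16). The sterol enzymes and Scd2 were thus at their lowest at 2 weeks, and the 4-week values lay between those of the other libraries.

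**Figure D4:**
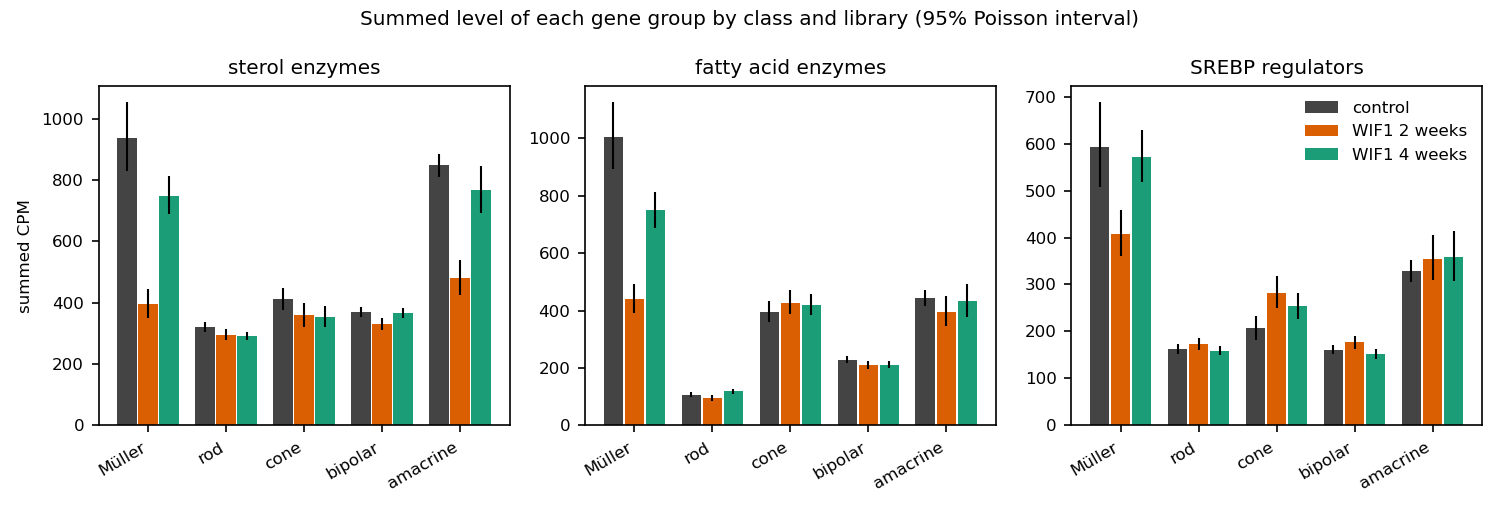
Summed CPM of the sterol enzymes, fatty acid enzymes and SREBP genes in each class and library (1 library per bar, 95% Poisson interval, counting error only). The sterol enzyme sum at 2 weeks was below both other libraries in Müller-like (395 CPM) and amacrine-like nuclei (480 CPM), and the rod-like, cone-like and bipolar-like bars lie between 291 and 411 CPM.

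Few of the genes had the depth for a ratio of their own in Müller-like nuclei. At a minimum of 30 UMIs in the library with the higher CPM, 6 genes were measured at 2 weeks against control, and 3 were 2-fold or more lower and 0 higher, beside 2.84% and 8.29% of the 3944 genes measured. These were Msmo1 at a ratio of 0.282 (0.184 to 0.427), Scd2 at 0.376 (0.312 to 0.452) and Insig1 at 0.315 (0.190 to 0.517). The other 3 were Srebf2 at 0.628 (0.448 to 0.885), Srebf1 at 1.02 (0.669 to 1.58) and Ebp at 1.004 (0.566 to 1.85). At a minimum of 10 UMIs, 20 genes were measured, and 10 were 2-fold or more lower and 1 higher, beside 5.13% and 11.9% of 8595 genes. Their median log2 ratio was -0.89, beside 0.11 over all genes at that depth.

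The sterol enzymes added at that lower minimum had ratios below 0.5 in 7 cases. Idi1 had 24 UMIs in the control and 11 at 2 weeks, from sums of 291694 and 677726 UMIs over all genes, a ratio of 0.197 (0.0872 to 0.418). Sqle was at 0.241 (0.116 to 0.482), Cyp51 at 0.228 (0.0895 to 0.540), Fdps at 0.311 (0.140 to 0.671) and Hmgcs1 at 0.366 (0.180 to 0.735). Sc5d was at 0.473 (0.246 to 0.914), and Dhcr7 at 0.387 (0.139 to 1.06), with an interval that holds 1. Fdft1 (0.619) and Nsdhl (0.646) were within 2-fold. Fasn was the gene on the other side, at 2 and 16 UMIs, with a ratio of 3.44 (0.809 to 30.9).

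The SREBP genes did not share 1 ratio at 2 weeks. Insig1 was at 0.315 and Srebf2 at 0.628, both with intervals below 1, whereas Srebf1 (1.02), Insig2 (0.915, 0.553 to 1.55) and Scap (0.861, 0.438 to 1.77) had intervals that hold 1. At 4 weeks, 8 genes were measured at 30 UMIs, and 0 were 2-fold lower or higher, beside 0.396% and 3.89% of 4041 genes. At 10 UMIs, 1 of 20 was lower (Fdps, 0.458, 0.233 to 0.912) and 1 higher (Fasn, 4.52, 1.116 to 39.5), beside 3.07% and 8.24% of 8436 genes. Msmo1 was then at 0.831 (0.608 to 1.15), Sqle at 0.990 (0.614 to 1.64), Insig1 at 0.766 (0.520 to 1.15) and Scd2 at 0.719 (0.615 to 0.841). Set directly against 2 weeks, the 4-week library had 6 of 15 genes 2-fold or more higher and 0 lower, beside 3.03% and 3.14% of 5672 genes: Hmgcs1, Idi1, Sqle, Cyp51, Msmo1 and Insig1, with ratios of 2.43 to 4.66.

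**Figure D5:**
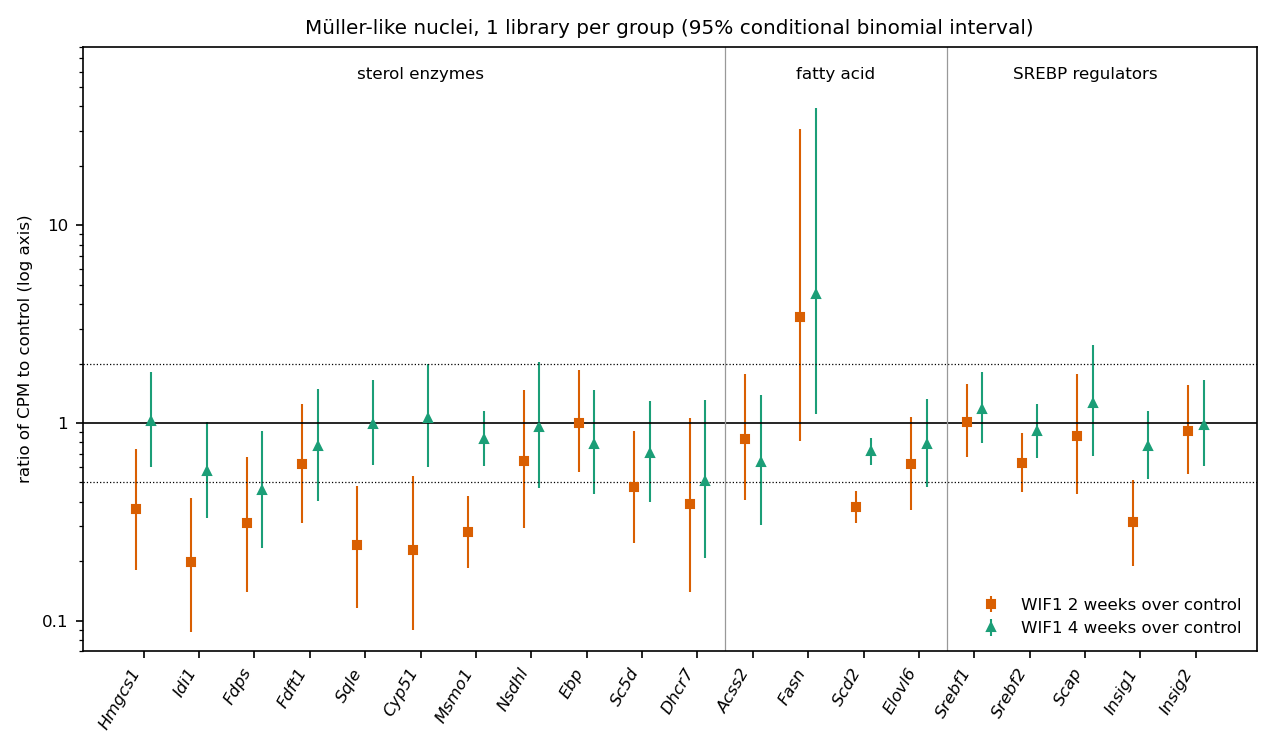
Ratio of CPM to the control library in Müller-like nuclei for the 20 genes with at least 10 UMIs in the higher library (log axis, 95% conditional binomial intervals). Squares are the 2-week and triangles the 4-week library, the dotted lines mark 2-fold, and both series share the control. Squares lie below 0.5 for 8 of the 11 sterol enzymes, Scd2 and Insig1, and near 1 for Srebf1, Insig2 and Ebp.

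Within the Müller-like class, a sub-cluster led by Abca8a, Spc25 and Rgs6 held 54, 165 and 143 nuclei, and another led by Aldh1a1, Lcn2 and Cp, of which Lcn2 is known from reactive glia, held 16, 92 and 59. Their shares of the class were 69.2%, 62.5% and 68.1% for the first and 20.5%, 34.9% and 28.1% for the second. The rest of the class was a small sub-cluster of 8, 7 and 8 nuclei, also with Lcn2 among its top genes, which was not read apart. In the first, the sterol enzyme sum was 1133, 415 and 828 CPM, which is 0.367 times control at 2 weeks (0.297 to 0.452) and 0.731 times control at 4 weeks (0.617 to 0.866). In the second it was 424, 361 and 616 CPM, with ratios of 0.851 (0.556 to 1.34) and 1.45 (0.968 to 2.26). The second sub-cluster rested on 16 control nuclei and 28 UMIs of these genes. The fatty acid enzymes were at similar ratios at 2 weeks in both, 0.441 (0.361 to 0.538) and 0.467 (0.333 to 0.662).

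Among the 5 classes compared, amacrine-like nuclei were the other class in which the sterol enzyme sum was far below control at 2 weeks. It stood at 848, 480 and 767 CPM, a ratio of 0.566 (0.498 to 0.640) at 2 weeks and 0.904 (0.809 to 1.01) at 4 weeks. Fatty acid enzymes were at 0.893 (0.773 to 1.03) and SREBP genes at 1.08 (0.923 to 1.26). Of 22 genes measured at 30 UMIs, 6 were 2-fold or more lower and 0 higher, beside 9.89% and 1.63% of 7712 genes. They were Hmgcs1 (0.352, 0.211 to 0.558), Fdps (0.431, 0.273 to 0.652), Sqle (0.384, 0.218 to 0.632), Msmo1 (0.384, 0.239 to 0.591), Idi1 (0.105, 0.0214 to 0.316, from 3 UMIs against 110) and Stard4 (0.107, 0.00264 to 0.636, from 1 UMI against 36). Insig1 was not among them, at 92.0 CPM against 74.5 CPM in the control.

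The makeup of the amacrine-like class differed between libraries, and its clusters were therefore read apart. A mixed cluster with Gad1 and Gad2 among its markers held 269, 47 and 33 nuclei, or 55.5%, 20.5% and 25.2% of the class. Its sterol enzyme sum was 917, 836 and 868 CPM, a 2-week ratio of 0.912 (0.740 to 1.11). This cluster pools sub-clusters that differed by library: 3 of them held 28, 31 and 15 control nuclei and 0 from the other libraries, and 1 held 24, 1 and 0 nuclei, so its ratio sets different sub-clusters against each other. In the cluster with Gjd2 and Calb2 among its markers (117, 93 and 56 nuclei) the sums were 812, 403 and 686 CPM, with a 2-week ratio of 0.497 (0.401 to 0.610). In the cluster led by Ebf3 (99, 89 and 42 nuclei) they were 706, 361 and 804 CPM, with a 2-week ratio of 0.511 (0.391 to 0.660). Both of these ratios had intervals below 1. In rod-like, cone-like and bipolar-like nuclei the 2-week ratios of the sterol enzymes were 0.920 (0.852 to 0.992), 0.873 (0.757 to 1.005) and 0.892 (0.832 to 0.957). The rod-like ratio was 1.01 over nuclei of at least 1000 UMIs.

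For the other pathway genes, 15 were measured in Müller-like nuclei at 2 weeks at 30 UMIs, of which 0 were 2-fold or more lower and 2 higher, beside 2.84% and 8.29% of all genes: Scarb1, a receptor for high-density lipoprotein, at 2.27 (1.59 to 3.32), and the cholesterol exporter Abca1 at 2.74 (1.44 to 5.74). Abca1 stood at 37.7, 103 and 44.4 CPM and Scarb1 at 127, 288 and 152 CPM, both highest at 2 weeks. Npc1 and Npc2, which move cholesterol out of lysosomes, were at 0.502 (0.299 to 0.847) and 0.598 (0.416 to 0.864). Median log2 ratios were 0.15 over these 15 genes and 0.17 over all genes at that depth. At 10 UMIs, 31 were measured, and 6 were higher (Scarb1, Abca1, Abcg1, Mylip, Pdss1 and Acacb) and 1 lower (Vldlr), beside 11.9% and 5.13% of all genes. The intervals of Abcg1, Mylip, Pdss1 and Acacb held 1. Acsl3 was at 0.769 (0.721 to 0.821).

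The rod-origin share, the share of the sub-cluster led by Aldh1a1 and the depth per nucleus all differed between the libraries. By library, from control to 4 weeks, a Müller-like nucleus gave a median of 3667.5, 2445 and 3372.5 UMIs. Over all nuclei kept, the median share of mitochondrial UMIs was 1.87%, 0.522% and 0.596%, and 0, 3400 and 294 barcodes had under 500 UMIs. The part of library quality in the ratios was not tested. The Müller-like sterol enzyme ratio at 2 weeks was 0.406 with RNA of rod origin subtracted, 0.406 without nuclei of high rod RNA and 0.420 over nuclei of at least 1000 UMIs. It was 0.542 when each nucleus was classed by its highest marker score. The part of the sub-cluster shares in the class ratio was not tested beyond the values within sub-clusters.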

How the data were processed

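Nuclei of the mouse retina were assayed by 10x multiome sequencing in 3 libraries, 1 per group. The authors deposited unnormalised counts (UMIs of each gene, and ATAC counts in peaks that were called in each library alone), made with Cell Ranger ARC 2.0.1 per the file headers and on mm10 per the submitters' processing notes, which also name Seurat 5.0.1 and Signac 1.12.0 without their roles. How multi-mapping or antisense reads were counted is not given in the sources used here.

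Barcodes with at least 500 UMIs and 300 genes and at most 10% mitochondrial UMIs were kept, and called doublets (566, 1218 and 806) were left out. Nuclei were clustered (scanpy 1.11.5, leidenalg 0.10.2) without the 29 genes and the 38 other pathway genes, so that neither defined a class, and clusters were called "-like" from marker lists. Mostly doublet clusters, a rod-marked cluster with immunoglobulin genes (607, 661 and 760 nuclei) and a cluster led by pigment cell genes were left unnamed. The last rule was added after the clusters were seen. Counts were summed per class and library, and the 15 sums fitted in edgeR 4.0.16 (quasi-likelihood, TMM, filterByExpr, library as a block, 8 residual degrees of freedom). The library is the pairing, since all classes of a library share its eyes. The 3 libraries differ in treatment, and nothing says that eyes or cultures were kept apart within one. With the block, p-values rest on how class differences vary between these libraries, pooled over the 5 classes. Benjamini-Hochberg adjustment ran over all 13173 genes tested, of which 27 were of the 29, with a threshold of 0.05. ATAC peaks from 1000 bp before the first to 1000 bp past the last start site were summed per gene and fitted likewise. In both fits the SE is the absolute log2 difference divided by the square root of the F statistic of its test. It is not a value that edgeR itself gives. DESeq2 1.42.0 was an alternative.

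Ratios between libraries compare single libraries and have no test. Their intervals (95%, conditional binomial) and the Poisson intervals of levels cover counting error only. Tested on simulated data over 12380 genes for Müller-like against the mean of the neuron classes, the fit called 84% of 2-fold and 100% of 4-fold higher genes. It called 62% of 0.5-fold and 96% of 0.25-fold genes, and 4.47% of calls were false. The simulation changed 50 genes per fold, none of the lowest counts, with a spread set in advance and all other genes equal between classes. In the data 29% and 27.5% of genes were called, so these rates need not hold for them.

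All 29 genes are accounted for. Other pathway genes are named only where past the threshold against the mean or past 2-fold between libraries in Müller-like nuclei. The 29 genes and the lists were chosen with earlier results of these data known.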

Additional observations from a re-analysis of the deposited data

How the results depend on the processing

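Members called by the RNA contrasts moved most where few were called. The count lower against rod-like nuclei (1) was 2 with no filter, with classes by highest marker score and with the doublet-rich sub-cluster counted as Müller-like, and 0 to 1 leaving out 1 library. The count lower against bipolar-like nuclei (2) was 1 with DESeq2, without nuclei of high rod RNA and with the pigment-gene-led sub-cluster counted, and 0 to 2 leaving out 1 library. The count higher against amacrine-like nuclei (6) was 3 without nuclei of high rod RNA, 3 with RNA of rod origin subtracted, 2 with classes by highest marker score, and 3 to 6 leaving out 1 library. The count lower against the mean (2) was 1 with DESeq2, 1 without nuclei of high rod RNA, 4 with RNA of rod origin subtracted, 4 with the doublet-rich sub-cluster counted, and 1 to 2 leaving out 1 library. Without the replicate block, which pairs the classes of a library, the counts were 1 lower against bipolar-like, 3 higher against amacrine-like and 1 lower against the mean, and no other count moved by over 1.5 times. Over every combination of a gene, an RNA contrast and an alternative setting, 1847 kept their side of the threshold, 80 lost a call, 33 gained one and 1 turned. Those kept include combinations called in neither fit. The turned one was Ebp against bipolar-like nuclei, at -0.0196 with classes by highest marker score. The main fit made 19, 16, 16, 11 and 17 calls against rod-like, cone-like, bipolar-like and amacrine-like nuclei and the mean.

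Promoter counts ranged, leaving out 1 library, over 4 to 8 lower against rod-like, 1 to 3 higher against cone-like, 0 to 2 higher and 2 to 4 lower against bipolar-like, 0 to 4 higher and 0 to 2 lower against amacrine-like nuclei, and 1 to 6 higher and 2 to 4 lower against the mean. Without nuclei of high rod RNA, 0 were higher against amacrine-like nuclei.

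Between libraries in Müller-like nuclei, the count of members lower at 2 weeks (3) was 5 with classes by highest marker score or the pigment-gene-led sub-cluster counted, 10 at 10 UMIs and 13 at 3 UMIs. The count higher at 2 weeks was 1 at 10 and at 3 UMIs. At 4 weeks the count lower was 1 at 10 UMIs and with the pigment-gene-led sub-cluster, and 2 at 3 UMIs, and the count higher was 1 at 10 and at 3 UMIs. With classes by highest marker score, the 2-week sums were at 0.542 (sterol), 0.613 (fatty acid) and 0.960 (SREBP genes) of control, the 4-week fatty acid sum at 0.872, and the 4-week sums at 1.62, 1.42 and 1.13 of the 2-week ones. The fatty acid sum at 2 weeks was at 0.519 with the doublet-rich and 0.532 with the pigment-gene-led sub-cluster counted, which gave 0.878 at 4 weeks. The rod-like sterol ratio at 2 weeks turned to 1.01 over nuclei of at least 1000 UMIs. The sub-cluster settings, a fit on the 2 classes compared and TMM over the Müller-like sums were chosen after seeing the data. The cause of these moves was not tested. Depth limited the Müller-like ratios, with 78 control nuclei and 6 of 29 genes measured at 30 UMIs at 2 weeks.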

Other observations

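Vascular nuclei, which enter no comparison above, also held RNA of the 18 sterol enzymes. In endothelial-like nuclei (64, 56 and 76, in the order control, 2 weeks, 4 weeks) the summed level was 442, 266 and 389 CPM, and in pericyte-like or smooth muscle-like nuclei (47, 44 and 55) it was 602, 442 and 492 CPM. Stard4 stood at 43.6, 47.5 and 45.8 CPM in endothelial-like nuclei, above its Müller-like and neuronal levels of 1.64 to 15.3 CPM in every library. These values rest on 1 library each, and Stard4 on few UMIs. No test was made.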
